A study of Rattus norvegicus with 8 samples.

Results

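The comparison concerns lungs of rats ventilated supine at a high tidal volume, the volume of each breath, set against lungs of rats that were not ventilated. It rests on 5 of the 8 arrays of the series, chosen by their titles: 3 supine and 2 non-ventilated control arrays. All the rats were male Sprague-Dawley animals of 340 to 400 g, and every sample was total RNA from the dorsal caudal quadrant of the lung, labelled as a biological replicate. The supine rats received 18 mL per kg body weight at 40 breaths per minute with a positive end-expiratory pressure of 0 cmH2O, for up to 3 hours, after anaesthesia, tracheotomy and cannulation of the jugular vein. The labels do not say whether the control rats were anaesthetised or operated on, so ventilation and those steps cannot be told apart. The titles mark the supine samples SVt, while their condition label gives a high tidal volume, which was followed. The remaining 3 arrays, from rats ventilated prone at the same settings, entered only through the estimate of the spread between replicates.

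Large breaths without end-expiratory pressure overstretch alveoli and let them collapse and reopen, which is the usual experimental model of ventilator-induced lung injury. Stretched epithelium and endothelium are known to switch on stress kinases, NF-kappaB and chemokines, neutrophils enter from the capillaries, and the barrier of type 1 epithelial cells and endothelium becomes leaky. Dusp1, the gene of MAP kinase phosphatase-1 in the title of the series, encodes an enzyme that ends the activity of stress kinases.

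Expression is given on the log2 scale after GCRMA, a background correction and normalization for these Affymetrix arrays. Each gene is represented by at least 1 probe set, a group of short probes. A difference of 1 log2 unit is thus a doubling of signal. Values of single arrays are listed in the order of the replicate numbers, and errors after ± are standard errors of the model (limma) unless SD is stated. Array medians of the 8 arrays ran from 7.77 to 7.95. Lung markers were at the top of the scale on all 5 arrays: Sftpc, the surfactant protein of type 2 cells, read 15.41 and 15.51 in controls and 15.17, 15.28 and 15.36 in supine lungs, and the club cell secretoglobin Scgb1a1 read between 15.42 and 15.70. Neither gene differed by more than 0.19 between the groups. Both sat near the highest signals of the arrays, which ran from 15.50 to 15.72, so the size of their differences is uncertain.

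Supine replicate 3 stood apart, in RNA quality and in content. Its 3′ beta-actin control probe set exceeded the 5′ one by 9.10, where the remaining 7 arrays gave 3.16 to 4.64. For GAPDH the gap was 8.41, where the others gave 0.70 to 1.92. Such a gap is the usual sign of degraded RNA. The array also read liver and heart genes that the other 4 arrays of this comparison read at the floor of the scale, genes named here after their values were seen. Alb, the serum albumin gene, read 2.35 and 2.25 in controls, 2.34 and 2.35 on supine replicates 1 and 2, and 12.44 on supine replicate 3. Ttr, the thyroid hormone carrier transthyretin, read 9.94 there and at most 2.26 on the other 4. The atrial light chain Myl7 and the atrial myosin Myh6 read 7.92 and 8.87 there, and at most 2.14 and 2.79 on the other 4. Other heart genes were also raised on supine replicate 1. Myl4 read 2.96 and 2.94 in controls and 6.28, 3.06 and 5.48 in supine lungs, and Tnnc1 read 3.34 and 4.17 against 5.73, 3.33 and 6.11. Over the marker lists, 5 of 13 hepatocyte genes were tested and 3 of them were higher in supine lungs, and their summed level (log2) was 11.70 and 12.03 in controls against 13.07, 11.44 and 13.29 in supine lungs. On supine replicate 1 the highest of them was Hp, at 12.65, which read 9.62 on supine replicate 3. Of 15 cardiac genes 7 were tested and all 7 were higher, with summed levels of 6.61 and 6.56 against 8.01, 6.65 and 10.44. Apart from Pln, these cardiac genes read under log2 5 on both controls and could pass the filter for testing only through ventilated arrays. The filter thus favours a higher count here. Without supine replicate 3 the median difference fell from 2.04 to 0.05 for the hepatocyte genes and from 1.91 to 0.47 for the cardiac ones. The part that degradation or RNA of other organs plays in the results was not tested, and the list medians printed below are therefore also given without this array.

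**Figure D1:**
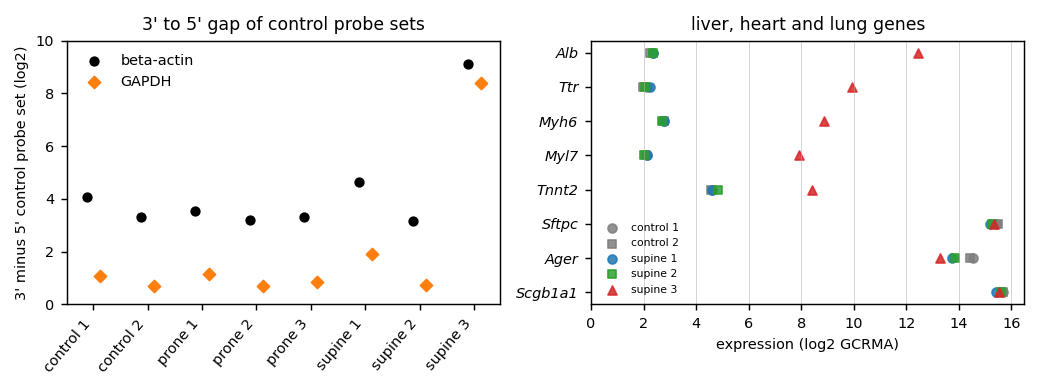
Left, log2 difference between the 3′ and 5′ control probe sets of beta-actin (circles) and GAPDH (diamonds) on each of the 8 arrays. Right, log2 expression of liver (Alb, Ttr), heart (Myh6, Myl7, Tnnt2) and lung (Sftpc, Ager, Scgb1a1) genes, 1 point per control or supine array; supine replicate 3 read Alb at 12.44 and the other 4 arrays at 2.35 or less.

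Few probe sets passed over the whole array, and most of those that did were lower in supine lungs. Of 16896 probe sets tested, 9 passed at an adjusted p under 0.05 (limma, Benjamini-Hochberg), which is 0.0533%, with 1 higher and 8 lower. At an unadjusted p under 0.05 there were 2573, or 15.2%, and for 41.8% the supine and control arrays did not overlap. Among the 10240 named genes, each read by its brightest probe set, 0.0391% passed at an adjusted p under 0.05 and 46.0% were higher, whatever their p. At an unadjusted p under 0.05, 6.48% were higher and 7.86% lower. All supine arrays lay above both controls for 19.4% of the named genes and below both for 22.9%. Without supine replicate 3 the shares at an unadjusted p under 0.05 were 4.42% and 5.38%, those without overlap were 24.2% and 25.7%, and 49.9% were higher. The median difference over the named genes was -0.07. These shares are the background for every gene group below, which are lists of textbook genes. Members that did not reach log2 5 on at least 2 of the 8 arrays were not tested, so the counts are not of all members. A member under log2 5 on both controls could pass only through ventilated arrays, which favours higher counts. One that was low in ventilated lungs could pass through the controls, which favours lower counts. Bnc1 and Gpm6a, both mesothelial, were the only members of the 58 lists whose brightest probe set passed over the whole array.

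The count of 9 depended on single arrays. With the replicate number as a block, which pairs arrays of the same number, it was 0 (2854 at an unadjusted p under 0.05). It was also 0 after leaving out control replicate 1 or 2, prone replicate 1, 2 or 3, or supine replicate 1 or 3, and it was 153 without supine replicate 2. Between 858 and 4016 probe sets had an unadjusted p under 0.05 in these fits, the lowest without control replicate 2 (914 without control replicate 1, 1709 without supine replicate 3) and the highest without supine replicate 2.

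Genes of the mesothelium, the cell sheet that covers the lung surface, were lower in supine lungs, with the lowest median of the 58 lists. Of 12 members 8 were in the table and were tested. All 8 were lower, all 8 had every supine array below both controls, and 7 had an unadjusted p under 0.05. The median difference was -3.05, and -2.66 without supine replicate 3. Bnc1, a zinc finger transcription factor of mesothelium and keratinocytes, read 6.88 and 6.60 in controls and 3.07, 2.69 and 3.09 in supine lungs. The supine arrays lay far below both controls, and the gene fell by 3.79 ± 0.28 (limma, adjusted p = 0.0164). Its supine values sat near the lowest signals of the arrays, so their closeness and the depth of the fall are uncertain. Gpm6a, a membrane glycoprotein known from neurons, read 12.26 and 12.29 against 8.37, 8.98 and 8.40. Its signal was thus well above the floor of the scale in both groups, and it fell by 3.69 ± 0.39 (limma, adjusted p = 0.0392).

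Other mesothelial genes kept the same order. Upk1b, a uroplakin of the cell surface, read 10.40 and 9.88 in controls and 6.66, 4.23 and 4.52 in supine lungs, a difference of -5.00 ± 1.00. Msln, the surface protein mesothelin, read 10.25 and 10.28 against 7.20, 8.05 and 7.52 (-2.67 ± 0.62). The transcription factor Wt1 read 6.61 and 6.75 against 5.63, 2.50 and 2.90 (-3.00 ± 1.15), so supine replicate 1 stayed closer to the controls than the other 2. Lrrn4, a leucine-rich repeat membrane protein, was read by 3 probe sets. The brightest was lower by 2.70 ± 0.62, and another, reading 5.40 and 5.92 in controls against 3.02, 2.84 and 2.99, fell by 2.71 ± 0.28 (limma, adjusted p = 0.0392). In pieces of whole lung, fewer cells of a type and less RNA per cell cannot be told apart, here and for every cell type named below. The summed level of the mesothelial markers was 14.26 and 14.35 in controls and 12.90, 13.45 and 12.58 in supine lungs. It leans on the brightest member, Krt19, named after its values were seen, which had the smallest difference of the list. Krt19 read 13.39 and 13.47 against 12.71, 13.31 and 12.41 (-0.62 ± 0.33, or -0.42 without supine replicate 3).

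The other falls past the threshold included genes of no list. Scel, which encodes the cornified envelope protein sciellin, read 6.99 and 8.03 in controls and 2.98, 2.72 and 2.96 in supine lungs, and fell by 4.63 ± 0.35 (limma, adjusted p = 0.0164). The SD was 0.74 in controls and 0.15 in supine lungs, whose values sat near the lowest signals of the arrays, so that the depth of the fall is uncertain. Tspyl4, a gene of the nucleosome assembly protein family, read 6.42 and 6.20 against 1.82, 3.02 and 2.38 and fell by 3.90 ± 0.38 (adjusted p = 0.0392). Arhgap1, which inactivates small GTPases, gave unequal readings on its 3 probe sets. The one that passed was dim (5.97 and 6.24 against 2.52, 3.08 and 2.50, a fall of 3.41 ± 0.30, adjusted p = 0.0282). The brightest read 11.26 and 11.22 against 10.29, 10.44 and 9.33 and was lower by 1.22 ± 0.57 (adjusted p = 0.354). A pair of probe sets without a gene symbol also passed. One rose from 3.11 and 3.02 to 6.73, 7.05 and 8.16 (4.25 ± 0.43, adjusted p = 0.0392), and the other fell from 5.92 and 5.84 to 3.13, 2.58 and 2.69 (adjusted p = 0.0392).

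**Figure D2:**
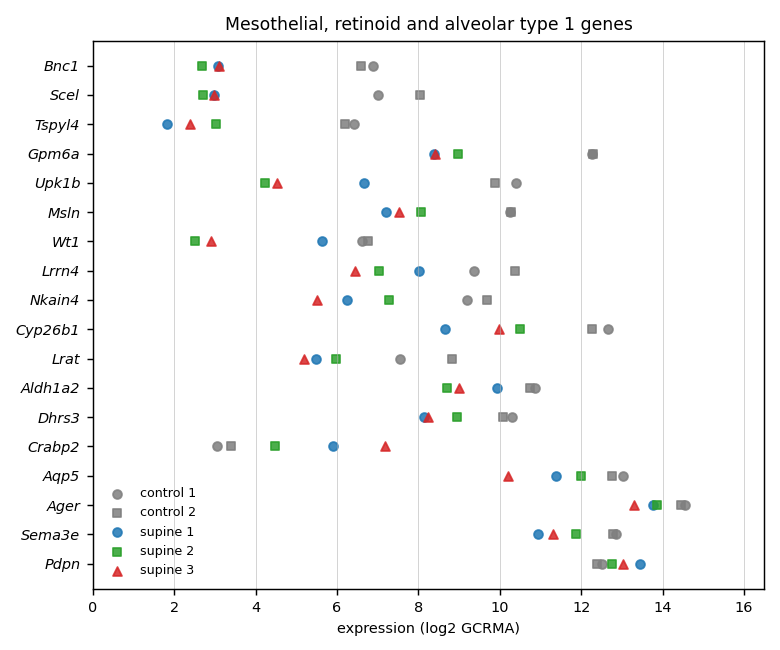
Log2 expression of mesothelial (Bnc1, Gpm6a, Upk1b, Msln, Wt1, Lrrn4, Nkain4), retinoid (Cyp26b1, Lrat, Aldh1a2, Dhrs3, Crabp2) and alveolar type 1 genes (Aqp5, Ager, Sema3e, Pdpn) with Scel and Tspyl4, brightest probe set of each, 1 point per array. The supine points of Bnc1 sit between 2.69 and 3.09 and the control points at 6.60 and 6.88, while Crabp2 and Pdpn run the opposite way.

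Genes of retinoic acid handling were mostly lower, with clear exceptions. Of 16 tested, 5 were lower and 2 higher at an unadjusted p under 0.05, and the median difference was -0.72 (-0.41 without supine replicate 3). Cyp26b1, the enzyme that degrades retinoic acid, had a bright probe set that read 12.65 and 12.27 in controls and 8.66, 10.48 and 9.97 in supine lungs (-2.75 ± 0.78). Its second probe set read 10.19 and 9.38 against 3.20, 5.10 and 4.36, and fell by 5.57 ± 0.59 (limma, adjusted p = 0.0392). Both probe sets placed every supine array below both controls, with supine replicate 1 the lowest. Lrat, which stores retinol as ester, was lower by 2.64 ± 0.56, and Dhrs3, which turns retinaldehyde back to retinol, by 1.74 ± 0.47. Aldh1a2, which makes retinoic acid and is also a mesothelial gene, read 10.86 and 10.74 against 9.94, 8.70 and 8.997 (-1.59 ± 0.49). Crabp2, which carries retinoic acid to its nuclear receptor, ran the other way, from 3.04 and 3.39 to 5.91, 4.48 and 7.18 (2.64 ± 0.69), and Rdh10, which oxidises retinol, was higher by 0.80 ± 0.29. The mesothelial markers moved with this group, and their part in it was not tested.

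Markers of alveolar type 1 cells, the flat cells that form most of the gas exchange surface, were lower. Of 11 tested, 10 were lower, 9 of them without overlap, and 6 had an unadjusted p under 0.05 (3 without supine replicate 3). Their median difference was -0.85, and -0.68 without supine replicate 3. Aqp5, their water channel, read 13.03 and 12.76 in controls and 11.38, 12 and 10.21 in supine lungs (-1.70 ± 0.52). Ager, the receptor for advanced glycation end products, read 14.54 and 14.44 against 13.76, 13.87 and 13.29 (-0.85 ± 0.32). The semaphorin Sema3e was lower by 1.44 ± 0.38 and the chloride channel family protein Clic5 by 1.39 ± 0.42. Pdpn, the membrane glycoprotein podoplanin, was the 1 member above its controls, at 13.43, 12.75 and 13.03 against 12.50 and 12.39 (0.62 ± 0.35, unadjusted p = 0.112). The type 1 markers thus did not move as one.

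Type 2 cell markers had a smaller difference, with a median of -0.31 over 13 genes, 12 of them lower and 2 at an unadjusted p under 0.05. The median was -0.30 without supine replicate 3, -0.15 without supine replicate 1 and -0.53 without supine replicate 2. Sftpc, a member of this list, sat near the highest signals of the arrays, so the size of its difference is uncertain. The mucin Muc1 was lower by 1.27 ± 0.46. The transcription factor Etv5, known to maintain type 2 cells, read 9.77 and 9.92 against 6.88, 8.66 and 5.09 (-2.97 ± 0.98). The lipid transporter of surfactant, Abca3, read 11.77 and 11.92 against 11.11, 11.97 and 11.53 (-0.31 ± 0.35, or -1.53 on its other probe set), so that the groups overlapped on the brighter one. Airway markers had a median of -0.11 over 13 genes, but 0.20 without supine replicate 3, with array medians of -0.27, 0.92 and -0.23, and 0 of them passed in limma, at an adjusted or at an unadjusted p under 0.05.

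Genes of alveolar fluid transport, which move water and ions across the lining of the airspace, were mostly lower as well. Of 17 tested, 13 were lower, 5 of them at an unadjusted p under 0.05, and the median difference was -0.57 (-0.40 without supine replicate 3). Aqp1, the water channel of lung capillaries, read 12.56 and 12.99 in controls and 11.30, 11.80 and 10.37 in supine lungs (-1.62 ± 0.54, or -4.36 on its other probe set). The sodium channel subunit Scnn1a, which draws fluid from the alveolus, read 10.21 and 10.17 against 11.09, 10.04 and 10.59 (0.38 ± 0.64), and its groups overlapped. Scnn1g and Scnn1b, subunits of the same channel named after their values were seen, differed by -1.16 ± 0.50 and -0.58 ± 0.32. Both had every supine array below both controls. Of 24 junction genes tested, 19 were lower, 12 of them without overlap and 6 at an unadjusted p under 0.05. Their median was -0.45 and -0.34 without supine replicate 3, but -0.28 without supine replicate 1 and -0.76 without supine replicate 2. The differences were clearest for 2 cytoplasmic junction proteins. Cgnl1, paracingulin, read 11.73 and 11.62 against 9.76, 10.37 and 10.04 (-1.62 ± 0.35), and its relative cingulin, Cgn, was lower by 1.71 ± 0.48. The claudins of the barrier had smaller values: Cldn18, the main alveolar claudin, differed by -0.21 ± 0.27 and the endothelial claudin Cldn5 by -0.93 ± 0.47 (-0.51 without supine replicate 3).

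Endothelial genes were lower throughout the list. All 16 tested were lower, 8 of them without overlap and 3 at an unadjusted p under 0.05, with a median of -0.72 (-0.50 without supine replicate 3). Ace, the angiotensin-converting enzyme of lung capillaries, read 12.22 and 12.08 in controls and 10.64, 11.44 and 9.86 in supine lungs (-1.50 ± 0.53). Calcrl, the receptor for adrenomedullin and CGRP, was lower by 1.83 ± 0.47 (-0.55 on its other probe set). Pecam1, the adhesion molecule CD31, read 12.48 and 12.31 against 12.09, 12.35 and 10.36. Supine replicate 2 overlapped the controls and supine replicate 3 lay far below, so its difference was -0.79 ± 0.59, and -0.17 without supine replicate 3.

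Among vascular peptides and angiogenic signals, 18 of 22 were lower, 15 of them without overlap and 8 at an unadjusted p under 0.05, with a median of -0.78 (-0.71 without supine replicate 3). Nos3, the endothelial nitric oxide synthase, read 6.72 and 7.08 in controls and 5.32, 5.74 and 5.55 in supine lungs (-1.36 ± 0.28). Vegfc, a growth factor for lymphatic vessels, read 10.49 and 10.91 against 9.14, 9.31 and 9.31 (-1.45 ± 0.33). In both genes the supine arrays lay close together and below both controls. Edn1, the vasoconstrictor endothelin-1, was more uneven, at 9.74 and 9.67 against 8.71, 8.12 and 5.93 (-2.12 ± 0.78, or -1.29 without supine replicate 3). Ramp1, the partner of Calcrl in the CGRP receptor and named after its values were seen, was lower by 1.81 ± 0.41. Angpt2, which destabilises vessels and is known as a marker of vascular leak, differed by -0.38 ± 0.36. Adhesion molecules for leukocytes split. Sele, E-selectin, read 4.66 and 2.84 in controls and 9.55, 5.13 and 6.82 in supine lungs (3.42 ± 1.23), while Icam2 was lower by 1.65 ± 0.47 and Icam1 differed by -0.52 ± 0.33.

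Chaperones of the heat shock response, which refold damaged proteins, were higher. Of 21 tested, 20 were higher, 15 of them without overlap, and 8 had an unadjusted p under 0.05. The median difference was 1.09. Without supine replicate 3 it was 0.82, with 20 higher, 16 without overlap and 5 at an unadjusted p under 0.05. The list median was 0.63, 1.04 and 1.74 above the control mean on supine replicates 1 to 3, so the degraded array was the highest. Promoters of this group are shown because several hold the binding motif of heat shock factor. The motif searched was GAA, TTC and GAA in this order, each 2 bases from the next, or its reverse complement. It was found in 5 of the 17 heat shock promoters that matched RefSeq (29.4%; Chordc1, Dnaja1, Hspd1, Hspe1 and Hsph1) and in 202 of all 27457 promoter windows (0.736%). A window runs from 250 bases before to 50 after the start of the gene, in the rat assembly GRCr8, and a match is a description of these letters only. The stretches upstream of the start follow 5′ to 3′ on the strand of the gene, with the matched bases in capitals.
Hsph1 (chr12:10427292-10427367, plus strand): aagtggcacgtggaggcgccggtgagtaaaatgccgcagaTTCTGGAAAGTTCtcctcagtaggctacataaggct
Hspe1 (chr9:64084222-64084319, plus strand): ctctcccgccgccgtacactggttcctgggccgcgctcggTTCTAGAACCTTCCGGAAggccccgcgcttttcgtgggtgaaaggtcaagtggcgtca
Hspd1 (chr9:64084222-64084287, minus strand): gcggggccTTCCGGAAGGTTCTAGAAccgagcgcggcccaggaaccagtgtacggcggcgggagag
Hspd1 and Hspe1 are divergent neighbours whose windows share 211 bases, and the capitals mark 2 overlapping matches in the same stretch of DNA.

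The levels of these genes differed in size. Hsph1, a large chaperone that works with Hsp70, read 10.60 and 10.89 in controls and 12.56, 12.95 and 14.54 in supine lungs (2.60 ± 0.61). Hspa1a, the inducible Hsp70, read 9.72 and 10.93 against 11.75, 13.51 and 14.80 (3.03 ± 0.83), and its partner Dnajb1 was higher by 1.52 ± 0.56. Ahsa1, which activates the ATPase of Hsp90, was more even, at 10.37 and 10.55 against 12.06, 11.94 and 12.74 (1.79 ± 0.35). Of the other genes with the motif, named by that match, Chordc1, a co-chaperone of Hsp90, was higher by 2.05 ± 0.53 and Dnaja1, a partner of Hsp70, by 1.30 ± 0.48. The mitochondrial chaperonin pair had smaller differences. Hspd1 read 12.54 and 12.60 against 13.17, 13.33 and 14.74 (1.18 ± 0.54, or 0.69 without supine replicate 3). Hspe1 read 13.15 and 13.18 against 13.59, 13.10 and 14.98 (0.72 ± 0.55, or 0.18 without supine replicate 3), and supine replicate 2 lay below both of its controls. Hspe1 thus rested largely on the degraded array, while for Hspd1 supine replicates 1 and 2 also lay above both controls.

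Genes of the oxidant response governed by NRF2 were higher on each supine array. Of 16 tested, 14 were higher, 10 of them without overlap and 7 at an unadjusted p under 0.05. The list median was 0.75, and 0.80 without supine replicate 3, where all 16 were higher, 11 without overlap and 7 again at an unadjusted p under 0.05. Per array it was 0.64, 0.92 and 0.69. Srxn1, which restores oxidised peroxiredoxins, read 4.69 and 4.06 in controls and 8.93, 8.98 and 11.05 in supine lungs (5.28 ± 0.78). Gclc, the catalytic subunit of the first enzyme of glutathione synthesis, read 8.13 and 8.12 against 9.26, 9.59 and 9.90 (1.46 ± 0.34, or 0.19 on its other probe set). Its regulatory subunit Gclm was higher by 0.64 ± 0.26 and the thioredoxin reductase Txnrd1 by 1.45 ± 0.44, both named after their values were seen. Hmox1, which degrades haem, was uneven at 9.14 and 9.15 against 11.79, 9.93 and 13.03 (2.44 ± 0.98), and Nqo1, a quinone reductase, was at 0.74 ± 0.37. The antioxidant element TGACNNNGC was found, on either strand, in 3 of 14 matched promoters of this list (21.4%) and in 12.2% of all windows. Genes of ribosome biogenesis held it in 7 of 38 promoters (18.4%). The glucocorticoid element was in 0 of 16 promoters of the glucocorticoid list (0.422% of all windows). For immediate early factors, the AP-1 site was in 0 of 16 (7.33% of all windows). The motif TGACGTCA was in 3 of those 16 and in 1 of 23 promoters of the ATF4 list (1.91% of all windows).

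Most genes of the glucocorticoid response list were higher too, with exceptions. Of 18 tested, 14 were higher, 11 of them without overlap and 8 at an unadjusted p under 0.05, with a median of 1.23 (0.93 without supine replicate 3). Fkbp5, a chaperone partner of the glucocorticoid receptor, read 8.92 and 9.21 in controls and 10.71, 11.27 and 10.94 in supine lungs (1.91 ± 0.34). The supine arrays lay close together and above both controls. Mt2A, a metal-binding metallothionein, had the largest difference of any named gene with an unadjusted p under 0.05 and no overlap, from 7.24 and 6.98 to 14.34, 10.47 and 14.44 (5.97 ± 1.51). Il1r2, the decoy receptor for interleukin-1 and also a neutrophil gene, read 5.78 and 5.32 against 12.40, 10.36 and 10.98 (5.70 ± 1.05). The clock gene Per1, at 6.78 and 9.19 against 9.72, 9.74 and 10.47, was higher by 1.99 ± 0.73, with controls that differed by more than the supine arrays. Tsc22d3, a textbook glucocorticoid target, differed by only 0.09 ± 0.44, and by -0.22 without control replicate 1 and -0.28 without supine replicate 2. The 4 lower genes, named after their values were seen, were Ddit4 (-0.82), the receptor gene Nr3c1 (-0.725), Sgk1 (-0.41) and Klf9 (-0.09). Without supine replicate 3, Ddit4 stood at 0.235. Among circadian genes, Dbp, a transcription factor of the clock output, read 10.01 and 10.70 against 6.67, 9.69 and 5.68 (-3.01 ± 1.19) and its antagonist Nfil3 was higher by 2.94 ± 1.04. The clock list as a whole had 9 genes higher and 10 lower, with a median of -0.24 (-0.03 without supine replicate 3). The labels give no time of day for the sampling.

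Genes of the unfolded protein response and the ATF4 pathway, which answer to misfolded protein or lack of amino acids, had a median difference of 0.63 (0.68 without supine replicate 3). Of 25 tested, 18 were higher, 11 of them without overlap, and 6 had an unadjusted p under 0.05. Atf4 itself read 12.82 and 12.90 in controls and 13.94, 13.60 and 13.84 in supine lungs (0.94 ± 0.27). Mthfd2, an ATF4 target of mitochondrial folate metabolism, was higher by 2.65 ± 0.85, while the lumenal chaperone Hspa5 stood at 0.63 ± 0.31 and the death-associated factor Ddit3 at 0.46 ± 0.44. Amino acid transporters moved alongside: 14 of 20 were higher, 6 of them at an unadjusted p under 0.05, with a median of 0.53 (0.34 without supine replicate 3). Slc38a2, a sodium-coupled carrier of neutral amino acids, read 10.67 and 11.16 against 11.95, 12.26 and 12.94 (1.46 ± 0.36). Slc7a6, an exchanger of basic for neutral amino acids, read 7.87 and 7.75 against 10.19, 9.61 and 11.66 (2.67 ± 0.60), and the arginine transporter Slc7a1 was higher by 2.33 ± 0.80 (1.53 without supine replicate 3).

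Genes that build ribosomes in the nucleolus were higher on each supine array. Of 41 tested, 38 were higher, 33 of them without overlap, and 17 had an unadjusted p under 0.05. The median difference was 1.29. Without supine replicate 3 it was 1.20, with 40 higher, 35 without overlap and 9 at an unadjusted p under 0.05. On supine replicates 1 to 3 the list median was 1.79, 0.56 and 1.53 above the control mean. Utp20, a component of the complex that processes the small subunit RNA, read 6.08 and 5.81 in controls and 8.95, 8.05 and 9.34 in supine lungs (2.83 ± 0.46). Wdr43, which acts in the same complex, read 6.33 and 7.14 against 9.97, 8.35 and 10.11 (2.74 ± 0.63). The ribosomal RNA processing factor Rrp12 and the box C/D snoRNP core protein Nop56, named after their values were seen, were higher by 2.93 ± 0.80 and 1.67 ± 0.50. Ncl, nucleolin, was 1 of the 3 lower genes, at 12.31 and 12.41 against 12.57, 13.08 and 10.47. It was above both controls on supine replicates 1 and 2, so that its difference was -0.32 ± 0.70, and 0.46 without supine replicate 3.

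Genes for the proteins of the ribosome itself were slightly lower. Of 40 cytosolic ribosomal protein genes tested, 36 were lower, 28 of them without overlap, by a median of only 0.26 (-0.24 without supine replicate 3), and 1 lower and 2 higher genes had an unadjusted p under 0.05. Rps3 read 13.95 and 13.93 in controls and 13.31, 13.32 and 12.58 in supine lungs (-0.87 ± 0.32). The 2 higher genes were read by dim probe sets: Rps13 went from 2.93 and 2.46 to 6.69, 4.72 and 8.29 (3.87 ± 0.94) and Rpl39 was higher by 1.24 ± 0.44. Many ribosomal protein genes have near-identical processed copies, so these readings are uncertain.

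Subunits of the respiratory chain and ATP synthase were lower almost throughout. Of 64 tested, 59 were lower, 35 of them without overlap, and 9 of them had an unadjusted p under 0.05. Of all named genes, 22.9% were lower without overlap and 7.86% lower at that p. Without supine replicate 3, 4 were lower and 1 higher at that p, where 5.38% and 4.42% of all named genes were. The median difference was -0.51, and -0.38 without supine replicate 3, with list medians of -0.10, -0.59 and -0.81 on supine replicates 1 to 3. Supine replicate 1 was thus nearly level with the controls. Cox5a, named after its values were seen, ran the other way (0.93 ± 0.40, or 1.23 without supine replicate 3). Ndufa6, a subunit of complex I, read 12.04 and 11.78 against 10.93, 10.73 and 10.85 (-1.07 ± 0.27) and its supine arrays lay close together. Ndufb4, of the same complex, was lower by 0.85 ± 0.28. Proteasome subunits divided, with 16 higher and 23 lower of 39 and a median of -0.08 (0.07 without supine replicate 3). The lid subunit Psmd12 was higher by 1.31 ± 0.37 and the activator Psme4 by 1.07 ± 0.30 on its brightest probe set (its other probe sets differed by 0.09 and -0.08), while the core subunits Psmb1 and Psmb7 were lower by 0.86 ± 0.33 and 0.91 ± 0.36.

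**Figure D3:**
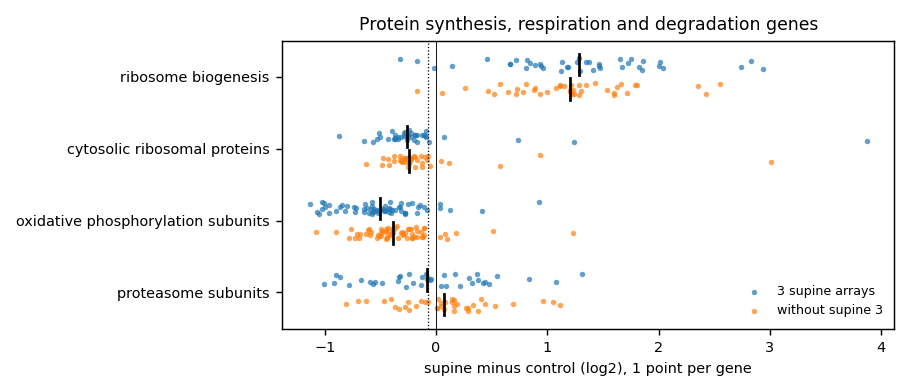
Difference between supine and control means (log2) for each tested gene of 4 lists, 1 point per gene, with all 3 supine arrays (blue) and without supine replicate 3 (orange); black bars are list medians and the dotted line is the median of all named genes, -0.07. Ribosome biogenesis genes centre on 1.29 and respiratory chain subunits on -0.51, and leaving out supine replicate 3 gives 1.20 and -0.38.

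Cell cycle genes differed in both directions, more often higher. Of 31 cell cycle genes tested, 20 were higher, 16 of them without overlap and 11 at an unadjusted p under 0.05, and 11 were lower, 2 of them at an unadjusted p under 0.05. The median difference was 0.41 (0.35 without supine replicate 3, where 9 were higher and 1 lower at an unadjusted p under 0.05). Ccnb2, a mitotic cyclin, read 5.59 and 5.65 in controls and 7.61, 7.94 and 7.70 in supine lungs (2.13 ± 0.28, limma, unadjusted p = 8.08e-05). Kif20a, a kinesin of cell division, read 3.86 and 4.18 against 5.49, 5.83 and 5.86 (1.71 ± 0.28). In both genes the supine arrays lay close together and above both controls. The proliferation marker Mki67 read 6.01 and 6.33 against 7.03, 8.59 and 9.23 (2.11 ± 0.79). Those 2 were E2f1, which drives entry into S phase (-0.97 ± 0.36), and Mcm2, of the replication helicase (-0.67 ± 0.27). Cdkn1a, the p21 inhibitor of cell cycle entry, read 9.60 and 9.60 against 12.01, 10.22 and 11.84 (1.76 ± 0.60). Summed levels of the whole cell cycle list were nearly equal, at 14.16 and 14.17 in controls and 14.34, 14.39 and 14.04 in supine lungs.

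**Figure D4:**
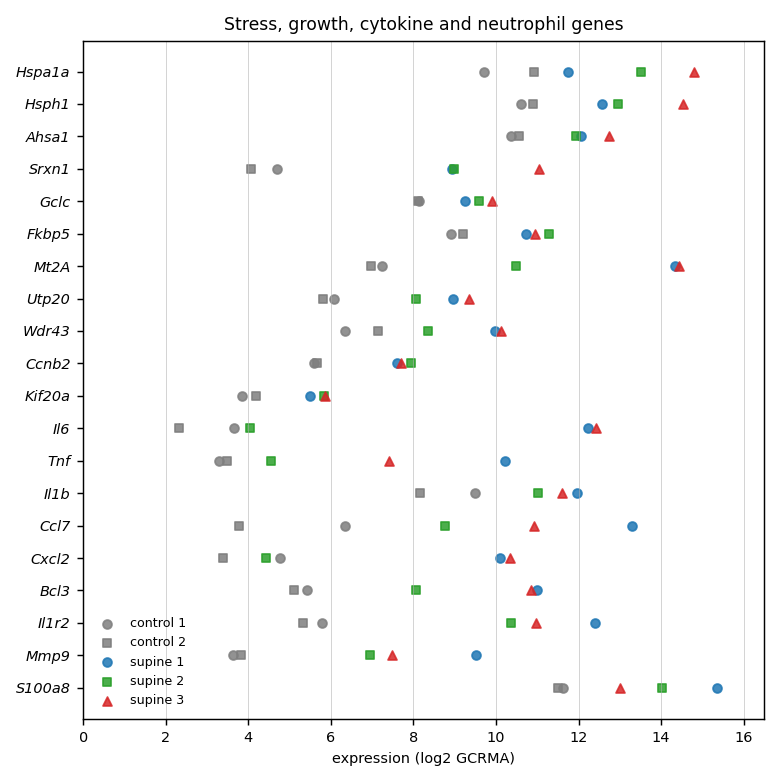
Log2 expression of heat shock (Hspa1a, Hsph1, Ahsa1), oxidant (Srxn1, Gclc), glucocorticoid (Fkbp5, Mt2A), ribosome biogenesis (Utp20, Wdr43), mitotic (Ccnb2, Kif20a), cytokine and NF-kappaB (Il6, Tnf, Il1b, Ccl7, Cxcl2, Bcl3) and neutrophil genes (Il1r2, Mmp9, S100a8), 1 point per array. Supine replicate 2 lies near the controls for Il6 (4.05), Tnf (4.55) and Cxcl2 (4.42) but with the other supine arrays for Fkbp5, Ccnb2 and Kif20a.

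Dusp1, the gene behind the series title, had a mean below that of the controls on both of its probe sets, and neither passed. The brighter read 14.12 and 13.44 in controls and 13.10, 13.12 and 13.74 in supine lungs. Supine replicate 3 lay between the controls and the other 2 below them, and the difference was -0.46 ± 0.35 (limma, adjusted p = 0.53). Without supine replicate 3 it was -0.67. The dimmer probe set of Dusp1, given after its values were seen, read 7.92 and 7.81 in controls and 2.62, 7.17 and 2.60 in supine lungs (-3.74 ± 1.32, adjusted p = 0.28). It was near the lowest signals of the arrays on supine replicates 1 and 3 and close to the controls on supine replicate 2, so the probe sets disagreed in size. Of 8 MAP kinase phosphatases tested, 5 were higher and 3 lower, 1 in each direction at an unadjusted p under 0.05. Dusp9, which acts on ERK, read 2.60 and 4.89 against 6.09, 5.99 and 9.26 (3.37 ± 1.31), and Dusp14 read 10.23 and 10.13 against 8.99, 9.32 and 7.87 (-1.45 ± 0.50). The list median was 0.19, and -0.24 without supine replicate 3 and -0.04 without control replicate 2.

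Immediate early transcription factors, induced within minutes to hours by stretch and stress signals, were divided. Of 25 tested, 16 were higher, 7 of them at an unadjusted p under 0.05, with a median of 0.50 that was 0.30 without supine replicate 3 and 0.78 without supine replicate 2. Atf3 read 8.75 and 8.61 in controls and 11.77, 9.93 and 13.32 in supine lungs (2.99 ± 0.86). Fosl1, a partner of Jun, read 2.52 and 2.39 against 8.13, 4.61 and 9.40 (4.93 ± 1.71), and Csrnp1 was higher by 2.43 ± 0.79. Klf4, which is known to respond to blood flow in endothelium, ran the other way, at 12.60 and 12.34 against 11.20, 11.55 and 11.74 (-0.98 ± 0.31). Fos and Jun, named after their values were seen, differed by -0.73 ± 0.87 and -0.68 ± 0.70. Targets of the stretch-sensitive factor YAP had a median of -0.10 (-0.16 without supine replicate 3), and 2 of 17 were lower at an unadjusted p under 0.05. Ccn1 read 9.76 and 10.31 against 8.75, 8.33 and 6.13 (-2.30 ± 0.72, or -1.49 without supine replicate 3) and Ankrd1 was lower by 1.19 ± 0.41 (-2.84 on its other probe set). Ccn2, another standard YAP target, differed by -0.25 ± 0.29. Among ligands of the EGF receptor, amphiregulin, Areg, read 5.32 and 7.72 against 8.34, 8.38 and 10.45 (2.54 ± 0.97) and Hbegf was higher by 1.43 ± 0.60.

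The median of the inflammatory cytokines was high on supine replicates 1 and 3 and near the controls on replicate 2, while the chemokine median was high on supine replicate 1 only. Of 13 inflammatory cytokines tested, 9 were higher and 2 had an unadjusted p under 0.05, with a median of 1.11 (0.93 without supine replicate 3) and array medians of 1.87, -0.10 and 1.41. All supine arrays lay above both controls for 4 of them and below both for 3. Those 3, named after their values were seen, were Il33 (-1.46), Il15 (-1.38) and Il18 (-0.49). Il6, Tnf, Osm, Csf3 and Il1rn, the last 2 named after their values were seen, read under log2 5 on both controls. They could be tested only through ventilated arrays, which favours a higher count, and only 13 of the 22 cytokines of the list were tested. Of 24 chemokines tested, 18 were higher and 1 had an unadjusted p under 0.05, with a median of 1.60 (1.92 without supine replicate 3) and array medians of 3.08, 0.12 and 0.23. Without supine replicate 1 the medians were 0.50 for each list, and without supine replicate 2 they were 2.00 and 2.44. Il6 read 3.65 and 2.32 in controls and 12.23, 4.05 and 12.42 in supine lungs. Its difference was thus set by 2 of the 3 lungs, and at 6.58 ± 2.92 it had an unadjusted p = 0.0561 (limma). Tnf read 3.28 and 3.49 against 10.23, 4.55 and 7.42 (4.01 ± 1.86, unadjusted p = 0.0655). The neutrophil attractant Cxcl2 read 4.78 and 3.39 against 10.09, 4.42 and 10.34, so supine replicate 2 overlapped the controls (4.20 ± 2.46). Ccl2, which attracts monocytes, read 8.46 and 7.37 against 13.80, 9.63 and 12.24 (3.97 ± 1.82), and its relative Ccl7 was higher by 5.94 ± 2.08. Il1b was more even, at 9.49 and 8.16 against 11.95, 11.02 and 11.60 (2.70 ± 0.59).

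Factors around NF-kappaB had 17 of 19 genes higher, 8 of them without overlap and 5 at an unadjusted p under 0.05, with a median of 0.63 (0.66 without supine replicate 3 and 1.03 without supine replicate 2). Bcl3, a nuclear IkappaB protein, read 5.42 and 5.12 in controls and 10.99, 8.05 and 10.85 in supine lungs (4.70 ± 0.99, or 1.72 on its other probe set). The kinase subunit Ikbkb, which releases NF-kappaB, read 7.92 and 7.86 against 9.10, 9.06 and 8.75 (1.08 ± 0.32). The inhibitor Nfkbia, a standard early target, differed by only 0.24 ± 0.72, and the feedback gene Tnfaip3 was at 1.80 ± 0.81. Of 13 genes of IL-6 family signalling, 10 were higher, 2 of them at an unadjusted p under 0.05, with a median of 0.61 (0.39 without control replicate 1, 0.43 without supine replicate 3). These were the shared receptor Il6st, at 11.80 and 11.64 against 13.40, 12.78 and 13.29 (1.44 ± 0.30), and its transcription factor Stat3 (1.58 ± 0.42, or 0.04 on its other probe set). The feedback inhibitor Socs3 differed by 0.23 ± 0.76, and by -0.53 without supine replicate 1. Of 16 Toll-like receptor genes, 13 were higher, with a median of 0.55 (0.48 without supine replicate 3). Tlr1, a receptor for bacterial lipopeptides, was higher by 2.72 ± 0.99 and the intracellular sensor Nod1 by 0.96 ± 0.31.

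Interferon-stimulated genes spread widely within both groups. Of 23 tested, 0 passed in limma at an adjusted or an unadjusted p under 0.05, and the list medians were 0.34 and -0.34 on the controls and 1.39, -0.36 and -0.81 on the supine arrays. Isg15, a ubiquitin-like protein induced by interferon and named after its values were seen, read 11.44 and 10.53 against 13.34, 9.68 and 10.04. Supine replicate 1 alone was high.

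Neutrophil markers were higher in all 3 supine lungs. Of 19 members 10 were tested. Of these, 9 were higher, 8 of them without overlap and 5 at an unadjusted p under 0.05. As a median they differed by 2.31, and by 3.12 without supine replicate 3, and array medians were 3.44, 2.74 and 1.38. S100a8, a calcium-binding protein abundant in neutrophils, read 11.63 and 11.50 in controls and 15.36, 14.03 and 12.997 in supine lungs (2.56 ± 0.79), and its partner S100a9 was higher by 1.88 ± 0.50. Mmp9, the gelatinase of neutrophil granules, read 3.62 and 3.81 against 9.51, 6.94 and 7.49 (4.26 ± 0.86, or 2.66 on its other probe set). Mmp9, with Mmp8 and Cxcr2, named after their values were seen, read under log2 5 on both controls. These genes could be tested only through ventilated arrays, which favours a higher count. The degraded array was the lowest supine array for both S100 genes. The summed level of the list was 13.82 and 13.74 in controls and 16.89, 15.57 and 15.25 in supine lungs. They and the cytokine, glucocorticoid and NF-kappaB lists all had higher medians in supine lungs, but their order across the arrays differed. On supine replicate 2 the neutrophil median was 2.74, where that of the cytokines was -0.10 and that of the NF-kappaB genes 0.15. The part of neutrophil markers in those results was not tested.

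Macrophage and monocyte markers showed no common direction, with 4 higher and 6 lower of 10 and a median of -0.23 (-0.05 without supine replicate 3). Itgax, the integrin CD11c of alveolar macrophages and dendritic cells, read 8.72 and 7.47 against 10.36, 9.99 and 11.64 (2.57 ± 0.81), while the scavenger receptor Cd163 was at 0.56 ± 0.66 (1.21 without supine replicate 3). Lymphocyte markers were lower, but the controls disagreed. For T cells 11 of 12 were lower and 3 had an unadjusted p under 0.05, with a median of -1.23, which was -0.99 without supine replicate 3, -0.62 without control replicate 1 and -1.87 without control replicate 2. Cd3g, a chain of the T cell receptor complex, read 11.18 and 10.01 in controls and 9.64, 8.49 and 7.89 in supine lungs (-1.92 ± 0.82). For B cells 8 of 9 were lower and 2 had an unadjusted p under 0.05, with a median of -0.93, or -0.83 without supine replicate 3, -0.46 without control replicate 1, -1.65 without control replicate 2 and -1.49 without supine replicate 2. Cd79b, of the B cell receptor, read 7.90 and 6.52 against 2.62, 5.36 and 2.26 (-3.80 ± 1.30). For cytotoxic cells the median was -1.21 (-0.79 without control replicate 1, -0.82 without supine replicate 3), with the pore-forming protein Prf1 lower by 1.76 ± 0.59 and the granule protease Gzmb at 0.58 ± 1.62. Of 5 mast cell genes 4 were lower, 2 of them without overlap, with a median of -0.60 (-0.35 without supine replicate 3). Cpa3 and Fcer1a were lower by 2.21 ± 0.88 and 2.31 ± 0.78, and the other 3 overlapped the controls. MHC class II genes, which antigen-presenting cells share, differed little, with a median of -0.12 (-0.03 without supine replicate 3) and Cd74 at -0.25 ± 0.25.

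**Figure D5:**
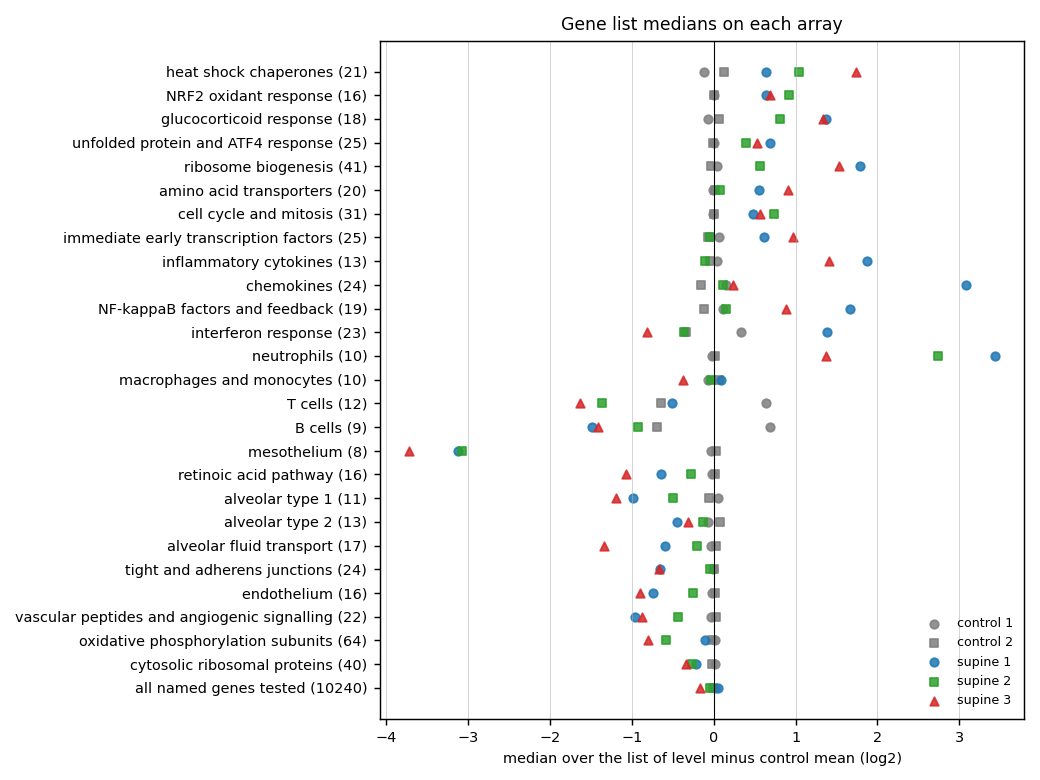
Median over each gene list of the log2 level minus the control mean, 1 point per array, for 26 lists and for all named genes; the number of tested genes stands in parentheses. Mesothelial markers lie at -3.12, -3.07 and -3.72 on the supine arrays, oxidant response genes at 0.64, 0.92 and 0.69, and chemokines at 3.08, 0.12 and 0.23.

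Matrix and protease genes moved one by one. Of 20 metalloproteinases and inhibitors tested, 3 were higher and 3 lower at an unadjusted p under 0.05, with a median of -0.06 (0.09 without supine replicate 3). Mmp11, stromelysin-3, read 7.74 and 7.41 in controls and 3.999, 5.54 and 3.31 in supine lungs (-3.29 ± 0.61), and the membrane-bound Mmp15 was lower by 1.10 ± 0.33. The protease Adamts9 read 8.74 and 9.28 in controls and 12.89 on supine replicate 3, the highest array, and was higher by 1.96 ± 0.84, or by 0.998 without that array. The inhibitor Timp1 read 10.90 and 10.83 against 14.08, 10.73 and 13.08, so replicate 2 again lay with the controls (1.77 ± 1.23). Of 35 collagen, laminin and elastic fibre genes 1 had an unadjusted p under 0.05: Tnc, tenascin-C, was higher by 1.76 ± 0.68. In the TGF-beta and BMP list, 3 of 34 were higher and 1 lower at an unadjusted p under 0.05. Inhba, the activin subunit, read 5.25 and 5.94 against 7.88, 7.70 and 7.07 (1.96 ± 0.76), and the BMP mediator Smad9 was lower by 1.86 ± 0.59. In coagulation, tissue factor, F3, was higher by 1.55 ± 0.51 and the plasminogen activator Plat by 1.15 ± 0.36, while urokinase, Plau, read 9.84 and 9.80 against 7.75, 9.001 and 7.78 (-1.65 ± 0.43).

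Lipid and drug metabolism held several of the larger differences. Of 28 sterol and fatty acid synthesis genes, 5 were lower and 2 higher at an unadjusted p under 0.05. Scd, which puts a double bond into fatty acids, read 10.35 and 11.25 in controls and 8.43, 8.18 and 7.88 in supine lungs (-2.63 ± 0.46), and its relative Scd2 was lower by 1.84 ± 0.55. Fasn, which makes the saturated chains, was higher by 1.10 ± 0.42 and the sterol enzyme Fdft1 by 1.40 ± 0.53 (0.02 on its other probe set). Among cytochromes P450 and conjugating enzymes, 19 of 24 were lower, 4 of them at an unadjusted p under 0.05, with a median of -0.59 (-0.30 without supine replicate 1, -0.52 without supine replicate 3). Cyp1a1, the target of the aryl hydrocarbon receptor, read 10.11 and 9.55 against 3.87, 8.59 and 4.21 (-4.27 ± 1.48). The club cell enzyme Cyp2f4 overlapped, at 10.48 and 10.44 against 7.96, 11.38 and 9.20 (-0.94 ± 1.70). Gpihbp1, which anchors lipoprotein lipase on capillary endothelium, read 10.43 and 10.69 against 7.61, 7.26 and 4.01 (-4.26 ± 1.46), and Angptl4, which inhibits that lipase, read 7.84 and 5.20 against 12.10, 8.71 and 10.40 (3.89 ± 1.33). Cpt1b, which carries fatty acids into muscle mitochondria, read 4.17 and 3.78 against 7.43, 6.47 and 9.69 (3.89 ± 0.85, or 2.97 without supine replicate 3). It read under log2 5 on both controls and could be tested only through ventilated arrays.

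The 15 largest differences in each direction, among genes without overlap at an unadjusted p under 0.05, held further genes. On the higher side, Rgs16, which damps G protein signals, read 4.28 and 4.21 in controls and 10.57, 6.59 and 11.33 in supine lungs (5.25 ± 1.40). The anion exchanger pendrin, Slc26a4, read 2.38 and 2.48 against 8.15, 4.86 and 8.85 (4.86 ± 1.60). The aldo-keto reductase Akr1b8 read 7.72 and 7.65 against 11.94, 10.58 and 12.52 (3.996 ± 0.65). These 3 genes share an order, with supine replicate 2 the lowest of the supine arrays and above both controls. Adamtsl2, a matrix protein that binds fibrillin, was higher by 3.82 ± 0.80. Acta1, the actin of skeletal muscle, read 3.71 and 2.39 against 6.45, 6.88 and 7.16 (3.78 ± 0.59), and the fast muscle troponin Tnnt3 read 2.83 and 2.51 against 4.93, 4.10 and 6.69 (2.57 ± 0.75). All 3 tested skeletal muscle genes were higher, 2 of them without overlap, with a median of 2.57 (1.84 without supine replicate 3), and their summed level was 10.41 and 10.76 in controls and 11.06, 10.63 and 11.50 in supine lungs. Acta1 and Tnnt3 read under log2 5 on both controls and could be tested only through ventilated arrays, which favours a higher count.

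On the lower side, Tm4sf4, a tetraspan membrane protein, read 8.49 and 9.08 in controls and 4.33, 3.84 and 5.72 in supine lungs (-4.16 ± 0.59). Igfbp6, a binding protein of insulin-like growth factor 2, read 10.44 and 12.02 against 8.30, 7.66 and 5.83 (-3.96 ± 0.86, or -2.57 on its other probe set). The sulfotransferase Chst4 read 6.06 and 7.89 against 3.54, 2.97 and 3.45 (-3.65 ± 0.52), and Stmn2, a stathmin that destabilises microtubules, read 5.68 and 8.04 against 2.59, 2.40 and 2.42 (-4.39 ± 0.89). For the last 2 genes the controls differed from each other by more than the supine arrays did. Acsm5, a mitochondrial acyl-CoA synthetase, was lower by 3.70 ± 0.81 and the carbonic anhydrase inhibitor gene Inhca by 3.84 ± 0.95. Pola2, a subunit of DNA polymerase alpha, read 10.80 and 10.77 against 8.46, 8.53 and 3.79 (-3.86 ± 1.36, or -2.29 without supine replicate 3).

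The remaining lists had smaller medians or rested on single arrays. Of 26 hypoxia and glycolysis genes 12 were higher and 14 lower, with a median of -0.03 (0.11 without supine replicate 3), and Bnip3l, a mitophagy receptor, was lower by 0.86 ± 0.30. Of 17 prostaglandin and leukotriene genes 0 passed in limma at an adjusted or an unadjusted p under 0.05, and Ptgs2, the inducible cyclooxygenase, read 6.74 and 6.34 in controls and 5.60, 7.14 and 8.98 in supine lungs (0.70 ± 0.88, or -0.17 without supine replicate 3). Smooth muscle and pericyte markers had a median of 0.08, which was 0.50 without supine replicate 3, 0.49 without supine replicate 1 and -0.25 without supine replicate 2, with calponin, Cnn1, at 8.52 and 8.51 against 10.81, 10.94 and 10.01 (2.07 ± 0.64) and the actin Acta2 at 0.08 ± 0.51. Of 14 fibroblast genes 13 were lower, by a median of 0.47 (-0.49 without supine replicate 3, -0.90 without control replicate 1, -0.27 without control replicate 2, -0.17 without supine replicate 1), and the 1 at an unadjusted p under 0.05, Pdgfra, was the 1 that was higher (1.07 ± 0.34). The haem synthesis enzyme Alas2, the marker of young red cells, read 7.10 and 7.08 against 8.44, 9.47 and 10.14 (2.26 ± 0.60), and 5 of 6 erythroid genes were higher, with a median of 0.53. Without supine replicate 3, the only one of the 5 arrays to read the erythroid factor Klf1 above the lowest signals (5.33, named after its values were seen), 3 were higher and 3 lower and the median was 0.10.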

How the data were processed

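The values are log2 GCRMA summaries per probe set, as the authors deposited them; GCRMA and Partek 6.5 are named in the submitters' processing notes. Targets came from 300 ng of total RNA per sample, per the labels' protocols. Nothing in the sources used here gives the filters, centring or tests of the authors, and detection calls were not analysed. Precision is limited by the number of arrays. The p-values set a difference against the spread between replicates, which was pooled over all 8 arrays, the 3 prone ones included.

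Of 20242 probe sets, 28 controls were set aside. A minimum of log2 5 on at least 2 arrays left 16896 for testing and dropped 3318. Symbols came from GEO's platform annotation (13155 tested probe sets with 1 symbol, 319 with several, 3422 with none). Of the 14993 probe sets with 1 symbol in the whole table, 14949 matched a RefSeq gene by identifier. A gene was represented by its brightest probe set, judged by the mean of all 8 arrays. The linear model had 1 mean for each of the 3 groups and used all 8 arrays (limma 3.58.1, R 4.3.3, lmFit, contrasts, eBayes; 5 residual and 2.51 prior degrees of freedom), with Benjamini-Hochberg adjustment over all tested probe sets, two-sided. The fit was tested on simulated data.

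The comparison and the 58 lists (1342 genes, 1076 in the table, 1019 tested) were chosen with earlier results of these data known, so they are not independent evidence. A list is described by counts and medians and has no test of its own. Named are genes with a probe set past adjusted p 0.05, the 15 largest differences each way among genes with unadjusted p under 0.05 and no overlap, up to 2 per list and direction by the same criteria, and fixed key genes; others are said to be named after their values were seen.

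Deviations from group means correlated between arrays of the same replicate number in all 7 such pairs (0.109 to 0.721). With 2 controls their deviations mirror each other, so these pairs are not independent. A pair of different numbers, prone replicate 3 and supine replicate 2, reached 0.404. The labels do not say what the numbers share. The main model, with its errors and p-values, left the arrays unpaired, and the replicate block was fitted as an alternative. Alternatives were leaving out each array, centring, another quantile normalization, filters, the compared groups alone, the replicate block, an intensity trend, robust eBayes, array weights and the mean of a gene's probe sets. List counts without supine replicate 3 were added after seeing the data. Promoter sequences are RefSeq's, assembly GRCr8.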

Additional observations from a re-analysis of the deposited data

How the results depend on the processing

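The 9 probe sets past an adjusted p of 0.05 became 0 with the replicate number as a block, 0 at a filter of log2 7, 0 with an intensity trend and 0 in a fit to the compared groups alone, 18 without a filter and 36 with array weights (limma, Benjamini-Hochberg); the last 2 sets held all 9. Leaving out 1 array gave 0 to 153. At an unadjusted p under 0.05 the 2573 probe sets became 2854 with the replicate block, 2089 at the filter of log2 7, 2673 with the trend, 2288 for the compared groups alone and 858 to 4016 when 1 array was left out. Apart from the loss of all 9 calls, pairing by replicate number changed no count of probe sets by over 1.5 times. The share of higher probe sets among these was 47.1%, and 51.4% with centred arrays. Of 178 genes selected by the naming rule, 170 kept their direction in all 18 alternatives. Genes chosen for groups without overlap cannot change direction when 1 array is left out, so this count was largely set by the selection. Leaving out 1 array, the exceptions ran from -0.19 (without supine replicate 1; -0.07 without control replicate 2) to 0.43 for Acta2, -1.05 to 0.10 for Dcn and -0.03 to 1.18 for Gzmb (both with the sign turned without control replicate 2), -0.038 to 3.05 for Myh6, -0.19 to 0.41 for Pf4 and -0.17 to 1.52 for Ptgs2 (each turned without supine replicate 3), -0.53 (without supine replicate 1) to 0.92 for Socs3, and -0.28 (without supine replicate 2; -0.22 without control replicate 1) to 0.40 for Tsc22d3. Pf4 was -0.18 with the replicate block. Of 58 list medians, 19 changed sign in some alternative. With 5 arrays, differences on dim probe sets near the floor of the scale have an uncertain size.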
